A study of Caenorhabditis elegans with 2 samples.

Results

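KLF-2 occupancy at the promoters of lipid metabolism genes was examined in mid-stage embryos of Caenorhabditis elegans. The genes are the 105 of 19973 nuclear protein-coding genes, in Ensembl models of the WBcel235 genome, whose symbol starts with fat, elo, acs, lipl, lbp, vit, ech, acdh, acox, cpt, dgat, maoc, hacd or fasn and a number, together with pod-2, sbp-1, mdt-15 and daf-22. They were picked by name and not by any measured value, though the set was chosen with earlier results of these data known. All samples belong to 1 group, with 2 biological replicates and nothing to contrast it with, so lipid genes were set beside the other 19868 coding genes. The worms were of strain RW12310, in which a CRISPR insertion gives the allele st12310, TY1::EGFP::3xFLAG::klf-2. Embryos were obtained by bleaching and labelled as 1.5 hours old, and chromatin from whole organisms was sonicated and precipitated with an anti-GFP antibody. The strain label places the allele on chromosome II, whereas klf-2 is annotated on chromosome V, so the site of the insertion is not settled here. Occupancy in a whole embryo is summed over all its cells, and no untagged strain was analysed here.

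Krüppel-like factors are zinc-finger proteins that bind CACCC and GC boxes in DNA. In C. elegans the related proteins KLF-1 and KLF-3 have been linked to fat storage and lipid metabolism. Fatty acids are made by acetyl-CoA carboxylase and fatty acid synthase, modified by desaturases and elongases, activated by acyl-CoA synthetases, and broken down by beta-oxidation in mitochondria and peroxisomes. Embryos live on yolk lipid that vitellogenins carried into the oocyte.

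The peaks were those the authors deposited in ce11 coordinates. Each peak has a signal value from their peak caller, in its own units, and a global irreproducible discovery rate (IDR), which is low where a peak ranks high in both replicates. The conservative list, from both replicates together, held 1032 peaks at a global IDR of 0.01 or lower, with a median signal value of 93.9. The ranked list, made without that threshold, held 111583 peaks with a median of 23.8. Replicate 1 alone had 63024 ranked peaks and replicate 2 had 50044. As promoter window of a gene, the 1000 bp before and the 500 bp after each of its transcript starts were taken, and a gene was scored by the highest ranked signal value with its summit, the peak's highest point, in that window. A gene with no such peak was scored 0. The gene klf-2 itself scored 64.2, rank 1079 of 19973, with no conservative peak in its window.

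A single lipid gene, ech-5, had a conservative KLF-2 peak in its promoter window. That is 1 of 105 lipid genes (0.952%, exact Clopper-Pearson 95% interval 0.0241 to 5.19%), against 3.05% of all coding genes, which lies inside the interval. The enzymes of fatty acid synthesis, the desaturases, the elongases, the acyl-CoA synthetases, the lipases, the lipid-binding proteins and the vitellogenins had 0 such peaks. No test was made of the difference between lipid genes and other genes.

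The gene ech-5, which belongs to the enoyl-CoA hydratase family, carried 1 peak that stood far above every other lipid gene. Enoyl-CoA hydratases add water to the double bond in an early step of beta-oxidation. The peak lay at chrIV:796580-796875 in intergenic sequence, with its summit 295 bp upstream of the only annotated ech-5 start. Its signal value was 163 in the series-level list, 96.5 in replicate 1 and 67 in replicate 2, and its global IDR was 0.000552. It ranked 181 of 1032 in the conservative list, and ech-5 ranked 107 of 19973 coding genes. The same summit lay in the promoter window of F56B3.11, a gene on the opposite strand whose start was closer, at 157 bp. When each summit was counted only for the nearest start, ech-5 had no conservative peak and its rank was 6390. The peak is printed here whole, on the plus strand, which is the strand of ech-5, with the summit at base 149 of 296.

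ech-5 peak: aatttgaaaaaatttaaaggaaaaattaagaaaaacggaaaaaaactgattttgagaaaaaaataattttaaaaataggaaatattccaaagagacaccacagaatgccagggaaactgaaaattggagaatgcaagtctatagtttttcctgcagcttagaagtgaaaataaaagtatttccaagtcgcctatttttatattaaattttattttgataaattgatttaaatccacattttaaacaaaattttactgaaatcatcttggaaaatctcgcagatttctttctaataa

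The ech-5 peak held neither CCACCC nor CCGCCC, the forms of the Krüppel-like box, on either strand, so no capitals appear in it. It was made of 25% G and C over its whole length and of 35.6% in the 101 bases around the summit. Over all 1032 conservative peaks the median in those bases was 49.5%, and 130 of them (12.6%) had the box there. None of the 36-base stretches in the 101 bases around the ech-5 summit occurs elsewhere in the genome. The snoRNA gene Y55F3BL.5, which lies within ech-5, starts 2582 bp from the summit.

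**Figure D1:**
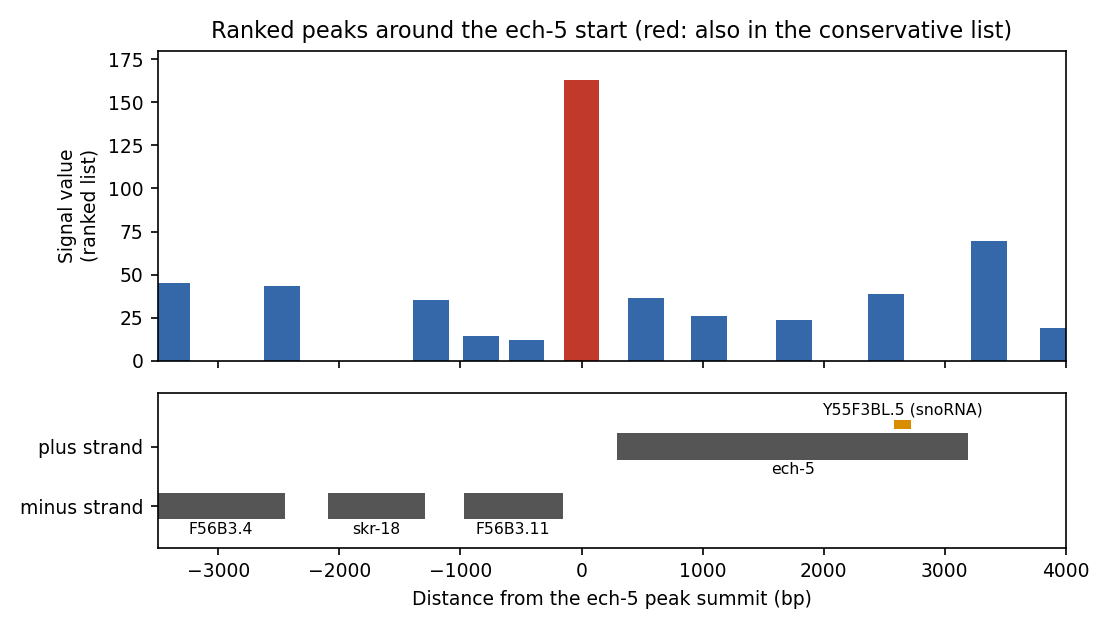
Signal value of each ranked peak (top, peak caller's units) and annotated genes by strand (bottom) against distance from the ech-5 peak summit in bp, with coding genes in grey and a snoRNA gene in orange. The red bar at 0, with a value of 163, is in the conservative list and lies between F56B3.11 and ech-5. The next highest bar, 69.6, lies 3365 bp from it.

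The other lipid genes formed a continuous range that reached only the low end of the conservative peaks. The next highest value, 57.7 at the lipase gene lipl-5, was lower than all but 36 of the 1032 conservative peaks. In all, 92 of 105 lipid genes (87.6%) had some ranked peak in the window (exact interval 79.8 to 93.2%), against 77.9% of all coding genes, which lies below the interval. With replicate 2 alone the order turned, at 49.5% of lipid genes and 54.8% of all coding genes. Further transcript starts made the window wider than 1501 bp in 33 of 105 lipid genes and 5217 of 19868 others. The part of window width in these shares was not tested. At a global IDR of 0.05 or lower, a looser limit chosen after the data were seen, ech-5 was again the only lipid gene with a peak (1 of 105, 0.952%, exact interval 0.0241 to 5.19%), against 6.22% of all coding genes, which lies above it. Taken alone, each replicate had a thresholded peak at ech-5 and at no other lipid gene, against 1.29% of all coding genes in replicate 1 and 1.52% in replicate 2. The other series-level thresholded list gave the same gene (1 of 105 against 3.05%).

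The median best value was 31.2 over lipid genes and 29.999 over the other coding genes. The upper quartile was 41.0 in lipid genes and 42.3 in other genes, and the lower quartile was 20.9 in lipid genes and 12.4 in other genes. With replicate 2 alone the median was 0 in lipid genes and 12.8 in other genes, and with replicate 1 alone it was 16.29 in lipid genes and 15.98 in other genes. Of lipid genes, 54 (51.4%) were in the upper 50% of all coding genes and 25 (23.8%) in the upper 25%. In the top 10% there were 4, namely ech-5, lipl-5, lbp-9 and acox-1.6 (3.81%, exact interval 1.05 to 9.47%), against 10% of all coding genes. This count depended on the replicate: with replicate 1 alone 10 lipid genes were in the top 10%, and with replicate 2 alone 5. Among genes that had a ranked peak the median was 32.5 in lipid genes and 35.1 in the others, so the order of the medians turned with the treatment of genes at 0. Intervals cover the counting of genes only, and genes of a family are not independent.

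**Figure D2:**
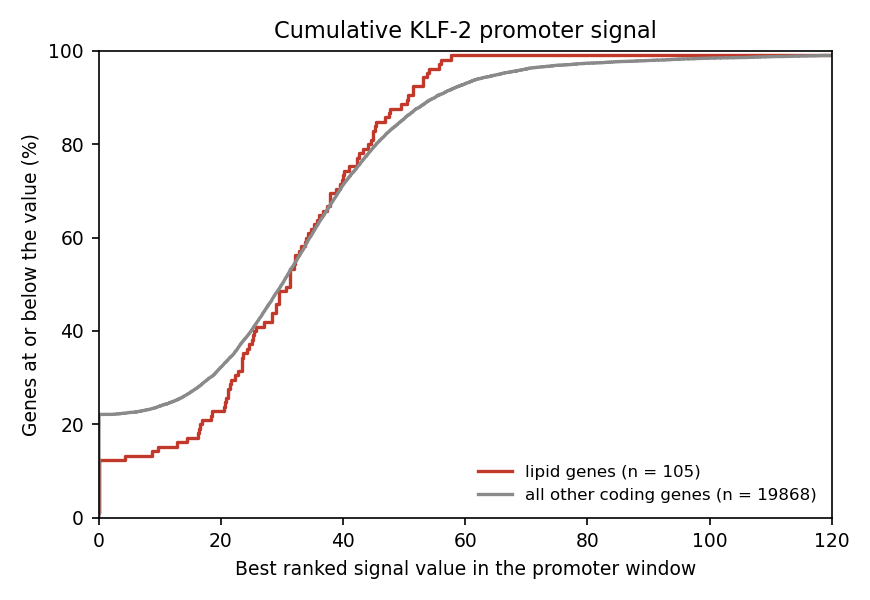
Cumulative share of genes (%) against the best ranked signal value in the promoter window, for lipid genes (red) and all other coding genes (grey). The curves lie close together near the medians of 31.2 and 29.999, and the grey curve reaches further to both sides. The axis ends at 120, past which lie ech-5 and 201 of the other genes.

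Regulators and synthetic enzymes came first in the order of the pathway. The gene mdt-15 encodes a Mediator subunit that works with SBP-1 and NHR-49 in the control of fatty acid genes. Its best value was 51.5, with 36.7 in replicate 1 and 19.1 in replicate 2. The series-level summit lay 358 bp downstream of a start, in a UTR, and replicate 2 had no summit within 100 bp of it. The global IDR of the series-level peak was 0.516, and the peak is shared with R12B2.13. The gene sbp-1, which encodes the worm SREBP, the master regulator of lipid synthesis, scored 25.4, with 13.9 in replicate 1 and 14.7 in replicate 2. For fatty acid synthase, fasn-1 scored 46.8, with 30.8 in replicate 1 and 20.6 in replicate 2. For acetyl-CoA carboxylase, pod-2 scored 25.2, with 20.9 in replicate 1 and no ranked peak in replicate 2. Within 100 bp of the series-level summit, replicate 2 had no summit at fasn-1, and neither replicate had any at sbp-1 or pod-2. None of mdt-15, sbp-1, fasn-1 and pod-2 reached the top 10%, which began at 55.0.

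The desaturases put double bonds into fatty acids. Of 7 fat genes, 4 had a ranked peak, against 77.9% of all coding genes, and the median was 23.5 with 3 genes at 0. The highest was fat-6, a stearoyl-CoA desaturase gene, with 43.2 in the series-level list, 30.7 in replicate 1 and 23.8 in replicate 2. Replicate 1 had no summit within 100 bp of the series-level one at fat-6. The related gene fat-7 had no ranked peak in the series-level list or in either replicate, and neither had fat-3. The fourth highest, fat-1, which encodes the omega-3 desaturase, scored 23.5. Of 9 elongase genes, 7 had a ranked peak, a share near the 77.9% of all coding genes, and the median was 29.0. The gene elo-8 led with 51.4, with window values of 33.2 in replicate 1 and 22.1 in replicate 2. Neither replicate had a summit within 100 bp of the series-level one at elo-8. Next was elo-2, which extends palmitate, with 49.5, having 22.4 in replicate 1 and 28.2 in replicate 2. The genes elo-5 and elo-9 scored 0.

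The acyl-CoA synthetases, which attach fatty acids to coenzyme A, are the largest family, with 22 genes, a median of 31.8 and 20 with a ranked peak, against 77.9% of all coding genes. At acs-20 the window value was 53.7, with 32.2 in replicate 1 and no ranked peak in replicate 2. At acs-17 it was 53.1, with 20.4 in replicate 1 and 35.2 in replicate 2, but replicate 1 had no summit within 100 bp of the series-level one. Values of 45.3 to 47.7 were found at acs-16, acs-1 and acs-13. Of these genes, acs-20, acs-16, acs-1 and acs-13 had the higher window value in replicate 1 and acs-17 in replicate 2, although the scales may differ.

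Beta-oxidation was represented by 39 genes of the acdh, acox, cpt, ech, maoc and hacd families and daf-22, with a median of 33.9. Apart from ech-5, 1 of them was in the top 10%. That was acox-1.6, of the peroxisomal acyl-CoA oxidases, with 55.7 in the series-level list, 22.4 in replicate 1 and 31.5 in replicate 2. The peak lay 882 bp upstream of its start at a global IDR of 0.131. The gene cpt-2, a carnitine palmitoyl transferase gene of mitochondrial import, scored 54.1. The highest values in its window were 36.9 in replicate 1 and 35.8 in replicate 2. At the series-level summit itself replicate 2 had 22.5. After cpt-2 came acdh-13 with 53.0, ech-4 with 50.6, acdh-11 with 44.9 and ech-6 with 44.8. The acyl-CoA dehydrogenase, oxidase, transferase and hydratase families had medians of 35.3, 24.2, 37.8 and 37.9. The thiolase gene daf-22, needed to make ascaroside pheromones, scored 31.2, maoc-1 scored 29.5 and hacd-1 scored 29.1.

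The genes of storage and transport gave the following values. The diacylglycerol acyltransferase gene dgat-2 scored 45.4, with 41.5 in replicate 1 and no ranked peak in replicate 2. Among 8 lipase genes lipl-5 led with 57.7. The highest value in its window was 41.3 in replicate 1 and 20.3 in replicate 2, but replicate 1 had no summit within 100 bp of the series-level one. All 9 lipid-binding protein genes had a ranked peak, against 77.9% of all coding genes. The highest, lbp-9, scored 56.0, with 33.8 in replicate 1 and 24.3 in replicate 2. Its summit lay 57 bp downstream of a start, in a coding exon, at a global IDR of 0.0611. The vitellogenin genes had the lowest median of the families with more than 1 gene, at 16.4 over 6 genes. The highest was vit-4 with 50.5, which had 28.7 in replicate 1 and no ranked peak in replicate 2, and vit-1 scored 0. At vit-3, 77.3% of the 36-base stretches around the summit occur elsewhere in the genome, against 0% at the other 4 vit genes with a peak. Among the 91 distinct best peaks of lipid genes 1 other was mostly repeated, acdh-3 with 95.5%. How the authors treated reads that map to more than 1 place is not given in the sources used here. Besides the members named, acdh-8, acox-3, acs-18, acs-6, cpt-3, ech-9, fat-4 and lipl-4 also scored 0, which makes 13 lipid genes in all. Of these, 4 had a ranked peak in 1 replicate: fat-4 (15.9), vit-1 (15.04) and ech-9 (14.2) in replicate 1, and acs-6 (16.3) in replicate 2.

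**Figure D3:**
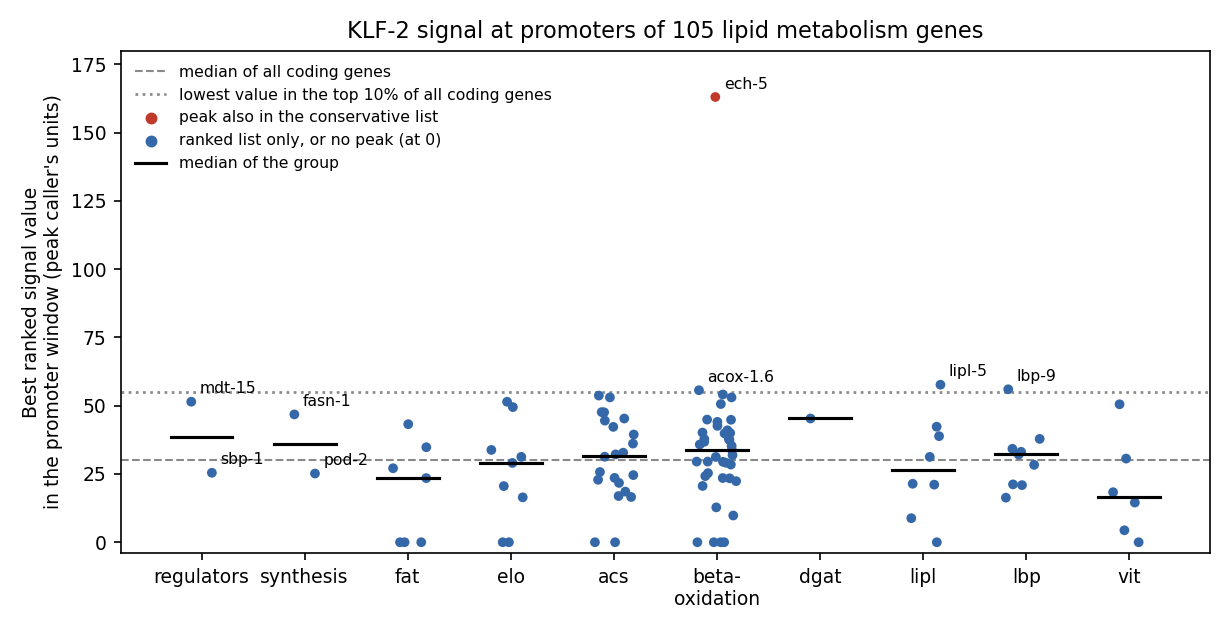
Best ranked signal value in the promoter window (peak caller's units) for each of the 105 lipid genes, by role, with the group median as a black bar. The red point, ech-5 at 163, is the only lipid gene with a conservative peak, and lipl-5, lbp-9 and acox-1.6 are the only others at or above the dotted line at 55.0, where the top 10% of all coding genes begins. The dashed line is the median of all coding genes, 30.001.

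The replicates ranked the lipid genes in different orders. In replicate 1, 69 lipid genes (65.7%) had a ranked peak in the window, against 61.3% of all coding genes. In replicate 2, which had fewer ranked peaks, 52 (49.5%) did, against 54.8%. A peak was present in both replicates for 37 of 105 lipid genes, against 8301 of 19868 other coding genes. It was present in 1 replicate for 47 lipid genes and in neither for 21. Of the 19868 other coding genes, 12183 had a ranked peak in replicate 1 and 10884 in replicate 2. With the 8301 in both, these fix the same counts for other genes, and the difference was not tested. These window values need not come from the same peak. The best series-level peak had a summit within 100 bp in both replicates for 15 lipid genes, and in at least 1 for 63. This matching was not done for other genes. Across the 37 genes Spearman's rho between the replicates was 0.27 and Pearson's r on the log2 scale was 0.40. Without ech-5 rho was 0.21 and r was 0.20. Across 8301 other coding genes with a peak in both replicates, rho was 0.37 and r was 0.49. These are correlations across genes in 2 libraries, which share their windows and base composition, and genes are not independent replicates.

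**Figure D4:**
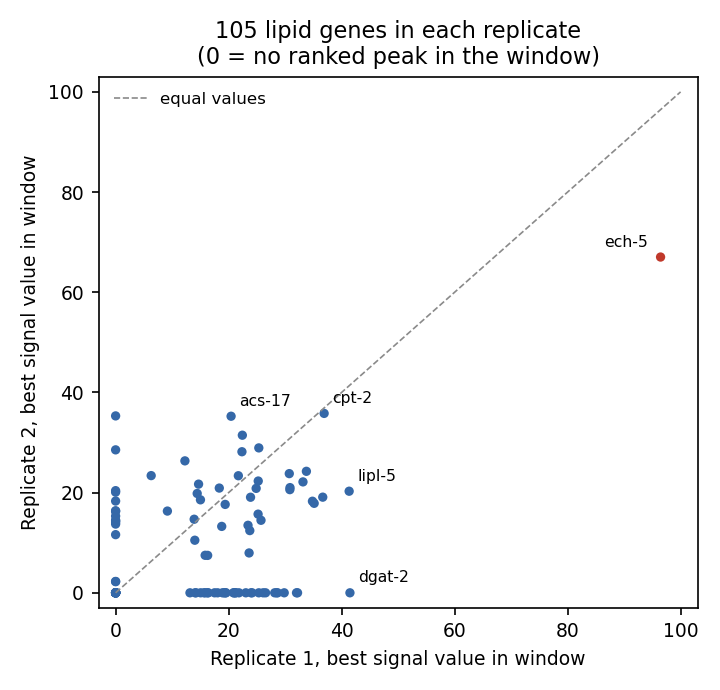
Best ranked signal value of each of the 105 lipid genes in replicate 1 and in replicate 2, with genes at 0 lacking a ranked peak in the window and the dashed line marking equal values, although the scales of both lists may differ. The red point is ech-5, at 96.5 in replicate 1 and 67 in replicate 2. The 36 other genes with a peak in both replicates form a cloud with a rho of 0.21.

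Position and sequence of the best peaks were set beside those of other genes. The summit was upstream of the gene's nearest start in 59 of 92 lipid genes (64.1%) and in 67.1% of other coding genes with a ranked peak. The median distance was 362 bp in lipid genes and 339 bp in other genes, and 25 of 92 summits (27.2%) lay within 200 bp of a start, against 30.8%. Of the 91 distinct peaks, 46 were intergenic, 24 in coding exons, 17 in introns and 4 in UTRs, and 0 lay within 100 bp of a gene for a tRNA, snoRNA, snRNA or rRNA, against 1.05% of other genes with a ranked peak. The median content of G and C within 50 bp of the summit was 37.6% in lipid genes and 39.6% in other genes. None of these differences was tested, and the split by annotation was not computed for other genes.

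The Krüppel-like box, CCACCC or CCGCCC on either strand, was present within 50 bp of the summit in 6 of the 92 lipid genes (6.52%) and in 5.97% of other genes. In flanking stretches of 50 bp on both sides, at a distance of 250 bp from these summits, it was present in 3 lipid genes (3.26%) and in 2.85% of other genes. The shorter CACCC, which CCACCC contains, was within 50 bp of the summit in 5.43% of lipid genes and 8.51% of other genes. The 6 genes with the box were vit-4, fasn-1, cpt-1, acdh-10, fat-5 and acs-2, all with the summit upstream of the start. Their values ran from 32.8 at acs-2, a gene known for its induction by fasting, to 50.5 at vit-4, and their global IDR from 0.159 to 0.528. None was in the top 10% of genes. Only at acdh-10 did both replicates have a summit within 100 bp of the series-level one. Replicate 2 had no ranked peak in the window at vit-4, fat-5 and acs-2. It had no summit within 100 bp at fasn-1, and replicate 1 had none at cpt-1.

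To show the box in its setting, the 101 bases around the summit are printed for 5 of these genes, each on the strand of its gene, with the box in capitals and the summit at base 51. They lie at chrX:3564281-3564381 for vit-4, chrII:12797395-12797495 for cpt-1, chrX:17215289-17215389 for acdh-10, chrV:17724744-17724844 for fat-5 and chrV:15566753-15566853 for acs-2, of which the last 2 are on the plus strand and the others on the minus strand.
vit-4: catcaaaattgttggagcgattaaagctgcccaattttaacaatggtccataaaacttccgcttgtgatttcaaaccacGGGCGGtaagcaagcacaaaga
cpt-1: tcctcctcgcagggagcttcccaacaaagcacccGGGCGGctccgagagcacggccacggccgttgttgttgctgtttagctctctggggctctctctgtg
acdh-10: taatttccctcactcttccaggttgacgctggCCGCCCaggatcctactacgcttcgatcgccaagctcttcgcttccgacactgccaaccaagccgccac
fat-5: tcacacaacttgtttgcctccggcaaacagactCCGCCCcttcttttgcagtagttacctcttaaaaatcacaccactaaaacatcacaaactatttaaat
acs-2: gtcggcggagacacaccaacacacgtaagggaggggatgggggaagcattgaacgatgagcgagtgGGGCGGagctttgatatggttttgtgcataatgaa
Each held 1 copy, always in the CCGCCC form or its complement GGGCGG. The content of G and C was 63.4% at cpt-1 and 39.6% at fat-5.

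**Figure D5:**
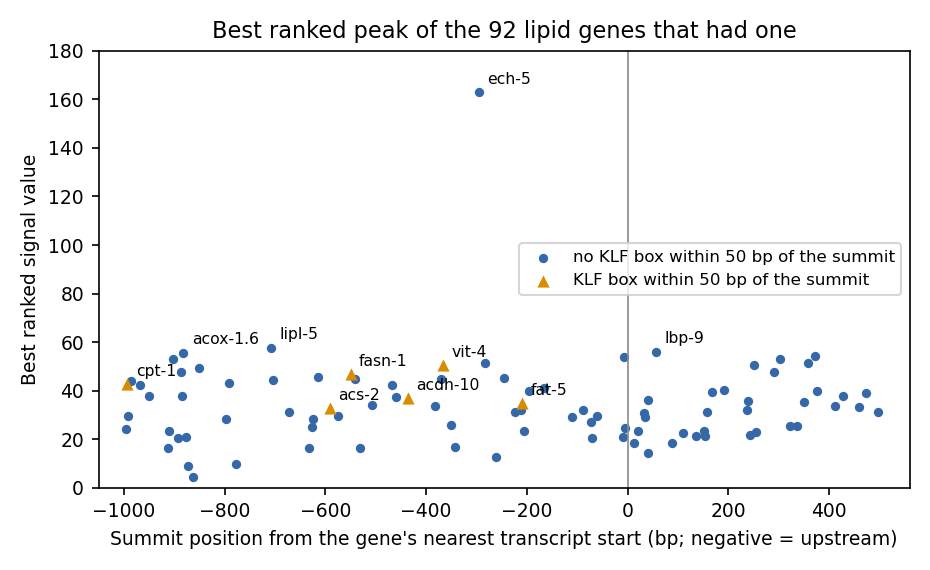
Best ranked signal value against the position of its summit from the gene's nearest transcript start (bp, negative upstream) for the 92 lipid genes with a ranked peak. Orange triangles mark the 6 genes with the Krüppel-like box within 50 bp of the summit, all upstream of the start and between 32.8 and 50.5. The highest point, ech-5 at 163, does not carry it.

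Beyond the promoter window, conservative peaks lay near or inside several lipid genes. A conservative summit was within 5000 bp of a start in 13 lipid genes (12.4%), against 10.3% of all coding genes, and inside the gene body in 3 (2.86%), against 1.96%. With replicate 1 alone 8 lipid genes had a thresholded summit within 5000 bp, and with replicate 2 alone 9. Those thresholded lists were smaller, with 436 and 456 peaks against 1032, and the share of all coding genes was not computed for them. The 3 genes with a conservative summit inside the gene body were sbp-1, acs-20 and acs-13. At sbp-1 the peak lay in an intron, 7479 bp from the annotated start, at chrIII:11434939-11435234, with a signal value of 87.6, 35.9 in replicate 1 and 46.2 in replicate 2. At acs-20, a synthetase gene, it lay in an intron 1371 bp from the start, at chrIV:12397187-12397482, with 76.7, 48.7 in replicate 1 and 29.7 in replicate 2. At acs-13 it lay in a coding exon 983 bp from a start, with 75.2, 36.7 in replicate 1 and 41.1 in replicate 2. With either replicate alone 0 lipid genes had a thresholded summit in the gene body, and with the other series-level thresholded list 1 had. For these lists too the share of all coding genes was not computed, so the lower counts cannot be read as particular to lipid genes.

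The centres of the sbp-1 and acs-20 peaks are shown as the conservative peaks within a regulator gene and within 1 of the 2 synthetase genes. Both are printed on the minus strand, that of the genes, with the summit at base 51, at chrIII:11435037-11435137 and chrIV:12397285-12397385.
sbp-1: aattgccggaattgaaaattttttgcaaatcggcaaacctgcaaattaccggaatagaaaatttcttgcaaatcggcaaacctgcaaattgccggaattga
acs-20: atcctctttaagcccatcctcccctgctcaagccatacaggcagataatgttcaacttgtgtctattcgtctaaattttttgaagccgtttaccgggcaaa
Neither holds the box or CACCC. The acs-13 centre, not printed, lacks the box but holds CACCC, with 58.4% G and C. The sbp-1 centre repeats within itself, and 92.4% of its 36-base stretches occur at more than 1 place in the genome, against 0% at acs-20. The part of read mapping in the sbp-1 peak was not tested.

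Most of the other nearby peaks were in the promoter window of another gene. At pod-2 conservative summits lay 1845 and 2303 bp upstream, with 89.4 and 85.6, in an intron and in the window of W09B6.4. The peak 1964 bp upstream of acs-11 (109) was in the window of eas-1, and that 3096 bp downstream of the acs-19 start (225) in the window of the ribosomal protein gene rpl-3. A peak of 185 in the windows of E04F6.6 and pcrg-1 was 4613 bp from acdh-12 and 3978 bp from maoc-1. The peaks near acdh-5 (275) and acs-14 (171) were at tRNA genes, and that near ech-1.2 (127), 1705 bp upstream, was at a snoRNA gene in the window of mrpl-23. The remaining peaks were 4919 bp from lbp-6 (107), in the window of mec-6, and 3715 bp from lipl-8 (72.7).

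Lipid genes outside the naming rule were counted from 7 lists of regulators and of other branches of lipid metabolism, with 160 entries of which 157 matched a gene. A conservative peak was in the promoter window of 7 (4.46%), against 3.05% of all coding genes, and 24 (15.3%) were in the top 10%, against 10%. The highest was at mlcd-1, the malonyl-CoA decarboxylase gene, with 336 in the series-level list, 140 in replicate 1 and 189 in replicate 2. Its summit lay 621 bp upstream and also in the window of idhg-1. The gene hach-1, for a hydroxyisobutyryl-CoA hydrolase, was counted through the list of other acyl chain metabolism. It had 216, with 102 in replicate 1 and 105 in replicate 2, and shared its peak with nmad-1. The sphingomyelin synthase genes sms-3 and sms-2 had 163 and 106, and cept-2, of phospholipid synthesis, had 97.7. The 2 regulators were hlh-11, with 92.9 at 156 bp upstream, and hlh-30, the worm TFEB gene of lysosomes and lipid breakdown, with 91.4 at 223 bp upstream. The lists for triglycerides and lipid droplets, for peroxisomes and for mevalonate and sterols had 0 conservative peaks among 24, 20 and 16 genes. With either replicate alone 3 of the 157 genes had a thresholded peak, against 1.29% of all coding genes in replicate 1 and 1.52% in replicate 2.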

How the data were processed

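ChIP-seq peak lists of 2 biological replicates in 1 group were used. Per the deposited notes, the lists derive from ce11 alignments of the replicates and a further file, and the thresholded lists from 1 more file. Of 1208 ranked peaks at a global IDR of 0.01 or lower, 176 are absent from the conservative list, and 0 lie in a lipid gene window. The peak caller and the aligner are not stated in the sources used here. The signal value is the authors' deposited value per peak, not normalized between lists. Genes were ranked within a list, and where values of different lists stand side by side their scales may differ. The authors' deposited IDR score is the −log10 of the global IDR. No file used here gives read numbers, so the depth is unknown.

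Transcript starts came from Ensembl release 115 for WBcel235, whose coordinates are those of ce11, and sequence from the RefSeq copy of that assembly. Summits were assigned to every window that held them with Python 3.11.15, pandas 2.3.3 and numpy 2.4.6, and correlations were computed with scipy 1.17.1. The assignment was checked on planted summits for 2000 genes, with 0 wrong. A replicate's value beside a window value is the highest ranked value in the same window, and beside a peak that of a summit within 100 bp.

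The genes and lists were chosen with earlier results of these data known. The genes named are those with a conservative peak, the 20 highest, the highest of each family, pod-2, fasn-1, sbp-1, mdt-15 and daf-22, and the listed genes with a conservative peak. Others were named after their values were seen: genes scored 0, genes with the box, and genes near conservative peaks. No test was made, as there was 1 condition.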

Additional observations from a re-analysis of the deposited data

How the results depend on the processing

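The count of 1 lipid gene with a conservative peak was 4 with a window reaching 2000 bp upstream (ech-5, pod-2, acs-11 and ech-1.2, against 4.12% of all coding genes) and 0 with the nearest start only; it was 1 under the other alternatives run, with each replicate alone too. The top 10% of coding genes held 9 lipid genes when signal values were summed over the window, and 5 to 10 with a replicate left out. The difference in medians, 1.24 in the report, was −12.8 to 0.31 with a replicate left out, the lowest with replicate 2 alone, where 52 of 105 lipid genes had a ranked peak, and −2.61 when genes without a peak were left out. Among the 157 lipid genes outside the rule the count of 7 was 4 with a window of 500 bp upstream and 200 bp downstream (2.17% of all coding genes), 12 with 2000 bp upstream (4.12%), 16 at a global IDR of 0.05 (6.22%) and 3 with either replicate alone (1.29 and 1.52%). These alternatives were chosen after seeing the data. So were those on summits within 5000 bp and on gene bodies, and the correlation without ech-5. The rank of ech-5 under the alternatives and the limit of 0.05 for the 105 lipid genes were also chosen then. Lipid genes with a summit within 5000 bp were 13 in the conservative list and 13 in the other series-level thresholded list. In the smaller thresholded lists they were 8 with replicate 1 alone and 9 with replicate 2 alone. Gene bodies with a summit were 3 in the conservative list, 1 in the other series-level thresholded list and 0 with either replicate alone. Outside the conservative list these shares were not computed for all coding genes. The box count at thresholded lipid gene peaks was 0 in the 3 settings run, each of which rested on ech-5 alone. Of all 1032 conservative peaks 12.6% had the box within 50 bp of the summit, so this 0 says little. No paired analysis was possible because there was 1 group. Depth is unknown, so a low or missing peak does not show absence of binding.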
